A study of Homo sapiens with 12 samples.

Results

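HK-2 cells, an immortalised line of human proximal tubule epithelium, were compared after 48 h with a recombinant preparation labelled S100A8/S100A9 and after 48 h with phosphate-buffered saline (PBS). The comparison takes 6 of the 12 libraries in the series, namely the 3 labelled S100A8/S100A9 and the 3 labelled as PBS control, and it was chosen by these labels alone. The other 6 libraries came from cells given recombinant S100A8 or S100A9 alone, and they appear here as values set beside the comparison. All groups were labelled wild type and were grown in DMEM with fetal bovine serum, which the control cells therefore received too. The labels print the protein dose as 5 mg/mL, a unit that could not be checked against another source. HK-2 is 1 line kept in culture, so the groups stand for repeated samples of that line and not for donors. Whether the replicates were cultured separately is not stated by the labels, and p-values and intervals rest on the spread among libraries, part or all of which may be technical.

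S100A8 and S100A9 are calcium-binding proteins stored in neutrophils and monocytes and released in inflammation. They pair into calprotectin, a complex that also binds zinc and manganese. Outside the cell they are known as ligands of the receptors TLR4 and AGER (RAGE), which signal through adaptors such as MYD88 to the transcription factor NF-kB. Genes under NF-kB in epithelium include cytokines, chemokines, complement and acute-phase proteins, and injured tubule cells are known to make many of them.

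The 3 control libraries held 15882193 to 17593989 counts and the 3 treated libraries 16736533 to 20748334, with 15483 to 15653 genes above 0. Of 20286 gene IDs, 13512 passed the filter on low counts and were tested. Several markers of the labelled lineage were abundant. The epithelial keratin KRT8 lay at 538 to 570 CPM (counts scaled to library size by TMM) and the renal lineage factor PAX8 at 275 to 368 CPM over the 6 libraries. Others of the same list were low: the cadherin CDH1 lay at 1.99 to 4.43 CPM and PAX2 at 1.63 to 3.85 CPM, while the cadherin CDH2 lay at 163 to 175 CPM. Proximal tubule markers were mixed: the brush border peptidases DPP4 and MME lay at 310 to 347 and 75.9 to 82.8 CPM, while the peptidase ANPEP reached at most 0.227 CPM. The endocytic receptor LRP2 reached at most 0.251 CPM, and the organic anion transporters SLC22A6 and SLC22A8 had 0 counts in all 12 libraries. Of 31 markers of other cell types 10 were at 0 in all 6 libraries, among them the B cell gene MS4A1 and the globin gene HBB, and 24 stayed under 1 CPM. Their summed level was 232.6 to 235.2 CPM in control and 234.1 to 240.3 CPM in treated libraries, most of it from LUM, PODXL and CD68, which these cells express.

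Between S100A8/S100A9 and PBS, no gene of 13512 (0 called, 0%) had an adjusted p under 0.05 by edgeR's quasi-likelihood test, and the smallest adjusted p was 0.630. An unadjusted p under 0.05 was reached by 757 genes (5.60%), of which 358 (2.65%) were higher and 399 (2.95%) lower, against 676 expected without any change. On the same counts DESeq2's Wald test called 1 gene, and by limma the authors' FPKM values (log2, with 1 added) gave 0. The treated libraries lay wholly above the controls for 716 genes (5.30%) and wholly below them for 730 (5.40%). The median log2 difference over all genes tested was 0.00, with 6712 genes (49.7%) above 0 and 50.3% below. As a measure over the genes with at least 10 CPM, the SD of the log2 differences between a treated and a control library ranged from 0.108 to 0.164 over 9 pairs (mean 0.130). It was 0.122 to 0.133 between control libraries (mean 0.128) and 0.119 to 0.140 between treated libraries (mean 0.129). A treated library was thus about as far from a control as from another treated one. Levels are relative to each library's total, so a shift shared by all genes could not be seen, and in RNA from bulk cells a share of responding cells and a change in every cell cannot be told apart.

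Because a gene that misses the threshold is not thereby shown to be equal, each gene was described by the 95% interval of its log2 difference and by the largest fold, in either direction, that this interval still holds. Genes with a mean of at least 10 CPM over the 6 libraries are called well measured here, and there were 9906. Their median interval reached 0.13 to either side of the estimate, a factor of 1.09. For 9073 of them (91.6%) the whole interval lay inside a change of 25% (a factor of 5/4 up or down), for 9867 (99.6%) inside 1.5-fold and for 9901 (99.9%) inside 2-fold. Over all 13512 genes tested these shares were 69.0%, 85.1% and 93.6%. A change of more than 1.1-fold was excluded for 2398 (24.2% of the well measured genes and 17.7% of all). The interval of the typical well measured gene thus excluded a change of more than 1.13-fold, and for 95% of these genes the limit was 1.28-fold or less.

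These intervals cover each gene by itself. When they were widened so that all 13512 hold together at 95%, 0 well measured genes (0%) lay inside 1.1-fold, 2168 (21.9%) inside 25%, 7771 (78.4%) inside 1.5-fold and 9710 (98.0%) inside 2-fold. For 9710 of the 9906 genes a change of 2-fold was thus outside the range left by these libraries under either kind of interval.

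**Figure D1:**
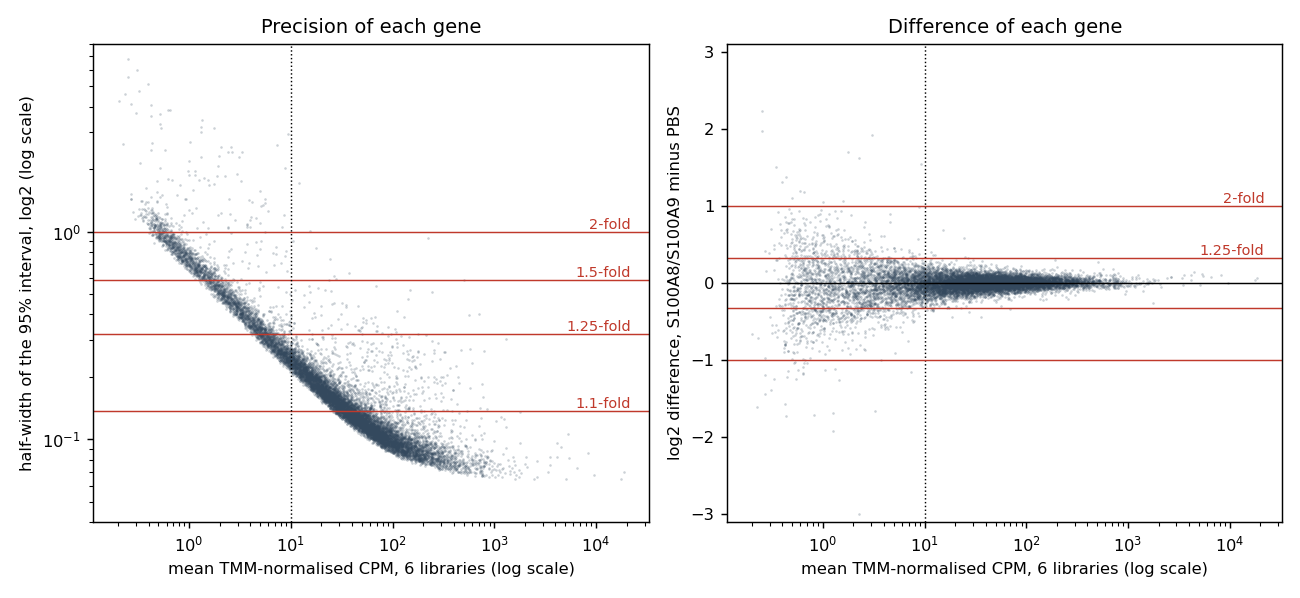
Each point is 1 of the 13512 genes tested, with the mean level of the 6 libraries in CPM on a log axis; the left panel gives the half-width of the 95% interval (log2, on a log axis) and the right panel the log2 difference, S100A8/S100A9 minus PBS. The dotted line marks 10 CPM, right of which 9901 of 9906 intervals lie inside 2-fold, while under 1 CPM the median half-width is 0.90.

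What could be excluded followed the level of the gene. Between 10 and 100 CPM (7550 genes) the median half-width was 0.14, a factor of 1.1, and 6758 genes (89.5%) lay inside 25%. Between 100 and 1000 CPM (2301 genes) it was 0.09, a factor of 1.06, and 1406 genes (61.1%) lay inside 1.1-fold. From 1 to 10 CPM (2860 genes) it was 0.38, a factor of 1.30, so that 246 genes (8.60%) lay inside 25% and 2593 (90.7%) inside 2-fold. Under 1 CPM (746 genes) the median half-width was 0.90, a factor of 1.87, and 151 genes lay inside 2-fold. Under 1 CPM most genes were therefore measured too loosely for a statement on changes under about 2-fold.

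The narrowest intervals belonged to abundant structural and translation genes. FLNA, an actin crosslinker, stood at 5081, 5151 and 5142 CPM in control libraries 1 to 3 and at 5196, 4969 and 5006 CPM in treated libraries 1 to 3, a log2 difference of -0.02 (95% interval -0.08 to 0.04). The libraries overlapped, and a change of more than 1.06-fold was excluded. FN1, the fibronectin gene, averaged 17527 CPM in control and 17979 CPM in treated cells and differed by 0.04 (-0.03 to 0.10). TPT1, the gene of the translationally controlled tumour protein, differed by -0.01 (-0.07 to 0.06) and EEF2, the elongation factor, by 0.05 (-0.02 to 0.11). ACTG1, cytoplasmic gamma-actin, was at 2395, 2374 and 2392 CPM in control and 2566, 2475 and 2450 CPM in treated cells, a difference of 0.06 (0.00 to 0.13). Its 3 treated values all lay above the controls, at an excess that the interval limits to 1.09-fold.

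Only 5 well measured genes had an interval that reached past 2-fold, and each has a near copy or overlaps another gene. U2AF1, a splicing factor, was at 18.6, 14.2 and 25.1 CPM in control and 32.4, 33.8 and 21.3 CPM in treated cells. Its near-identical copy U2AF1L5 was at 38.7, 48.0 and 37.9 against 27.5, 28.0 and 36.0 CPM. The first was higher by 0.58 (-0.16 to 1.32) and the second lower by 0.44 on the log2 scale (a difference of -0.44, -0.80 to -0.08), so the pair moved apart. With their counts summed, an alternative chosen after seeing the data, the difference was -0.03 (-0.14 to 0.08). RPL36A-HNRNPH2, a readthrough of a ribosomal protein gene, differed by 0.69 (-0.32 to 1.70) alone and by 0.02 (-0.09 to 0.12) when summed with RPL36A. SLC5A3, the myo-inositol transporter that lies within the MRPS6 locus, was at 265, 134 and 240 CPM in control and 275, 168 and 260 CPM in treated cells, a difference of 0.14 (-0.80 to 1.07). The library numbered 2 was the low one in both groups. The other genes past 2-fold were AP000944.2, which spans POLA2 and CDC42EP2, and AC116366.3, which spans IRF1, IL5 and RAD50.

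Among the well measured genes 20 had an estimate beyond 25% and 1, RPL36A-HNRNPH2, beyond 1.5-fold. Small shifts without overlap were looked for in the same set. For 419 of the 9906 genes the treated and control libraries did not overlap and the unadjusted p was under 0.05, with 215 higher and 204 lower. Of these, 406 were estimated at under 25%, 212 higher and 194 lower. Over all well measured genes both directions were thus about equally filled, but not at every level. At 1000 CPM and over 7 genes (12.7%) lay wholly above and 3 (5.45%) wholly below the controls. Between 100 and 1000 CPM these were 158 (6.87%) and 94 (4.09%). Between 10 and 100 CPM they were 399 (5.28%) and 404 (5.35%), and between 1 and 10 CPM 121 (4.23%) and 193 (6.75%). The share over all genes is thus not the share at each level.

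The 8 genes per direction with the smallest p, among those with at least 1 CPM, were chosen on these libraries, and their values are a description. Of the higher genes 7 are given here. RNF169 (chromosome 11, 74748868 to 74842413, GRCh38), a ubiquitin reader at DNA breaks, was at 25.7, 24.7 and 26.5 CPM in control and 31.5, 30.9 and 30.5 CPM in treated cells, a difference of 0.27 (0.13 to 0.42; adjusted p = 0.630 by edgeR). All treated values lay above all controls. EIF5, a translation initiation factor, was at 277, 253 and 261 against 307, 291 and 289 CPM, a difference of 0.16 (0.08 to 0.25), also without overlap. The other 5 higher genes were DLGAP5, described with the mitotic genes, PYROXD1, an oxidoreductase (0.30), RNF144B, a ubiquitin ligase (0.24), LY6E, a surface protein gene inducible by interferon (0.22), and SPOCK1, a matrix proteoglycan gene (0.17).

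Lower was DPY19L2 (chromosome 12, 63558913 to 63668939), a gene known for its part in sperm head formation and one with several close copies. It stood at 31.5, 29.4 and 31.0 CPM in control and 22.8, 24.2 and 24.2 CPM in treated cells, a difference of -0.37 (-0.53 to -0.21; adjusted p = 0.630 by edgeR). The groups did not overlap, and reads may be split among its copies. COL7A1 (chromosome 3, 48564073 to 48595267), the collagen of anchoring fibrils, was at 148.8, 140.6 and 153.0 CPM in control and 128.5, 129.1 and 126.3 CPM in treated cells, a difference of -0.20 (-0.30 to -0.11). RBM6, an RNA-binding protein gene, was at 49.2, 53.3 and 53.7 against 45.5, 44.4 and 44.6 CPM (-0.22, -0.33 to -0.11). Both were below control in each treated library. ST3GAL3, a sialyltransferase gene, differed by -0.50 (-0.76 to -0.23) at 7.74 CPM, and PABPC1L, a poly(A)-binding protein gene, by -0.44 (-0.65 to -0.22) with overlapping libraries. GOLGA8A (-0.22), PCDHGB2 (-1.26 at 1.44 CPM) and a second ID of HERC3 (-1.68 at 1.27 CPM) have copies, shared exons or overlaps that leave their counts uncertain.

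**Figure D2:**
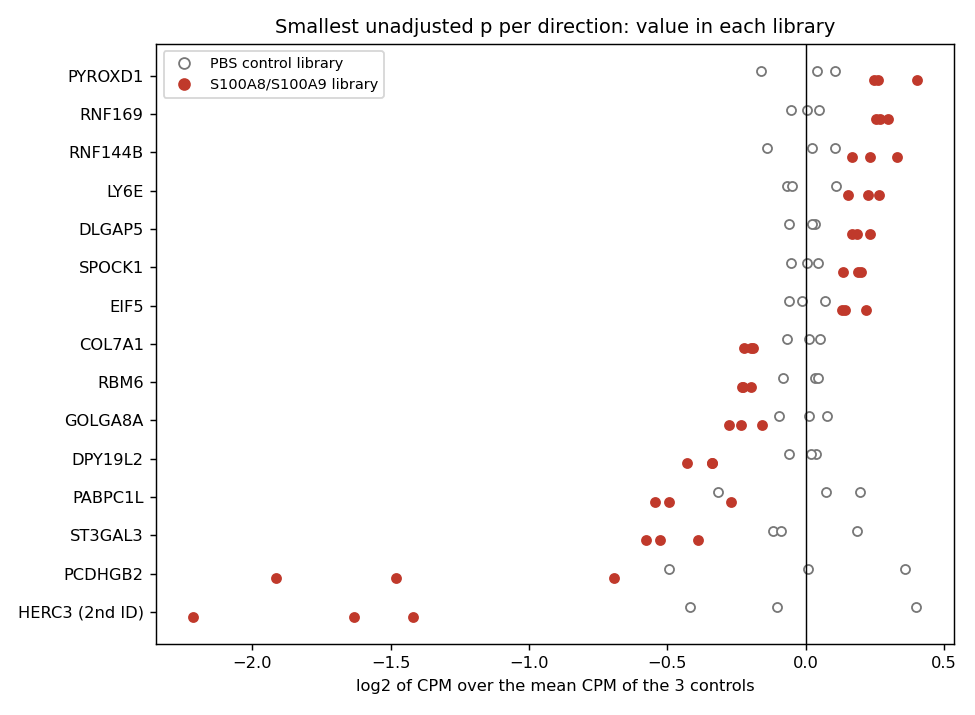
Of the genes with the smallest unadjusted p per direction, 8 lower and 7 higher ones are shown as log2 of each library's CPM over the mean of the 3 controls; open circles are PBS libraries and filled circles S100A8/S100A9 libraries. In 14 of the 15 genes the groups are apart, PABPC1L being the exception, and among genes over 10 CPM the differences lie between -0.44 and 0.30.

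Other genes passed only under another way of fitting. IGFN1, a muscle-type structural protein gene that was abundant here, was at 1852, 1834 and 2119 CPM in control and 1582, 1748 and 1521 CPM in treated cells. Its difference of -0.26 (-0.39 to -0.12) had an adjusted p of 0.0422 by DESeq2 and 0.630 by edgeR. RBM3, a cold-inducible RNA-binding protein gene, was at 176, 188 and 151 against 212, 229 and 191 CPM, higher in each treated library, and differed by 0.29 (0.09 to 0.49). VGF, a secreted neuropeptide precursor gene, was at 65.6, 84.3 and 81.9 against 54.0, 65.0 and 64.1 CPM, lower in each treated library, with a difference of -0.34 (-0.68 to -0.01). Both passed only with the replicate number as a block. Without control library 1, PABPC1L (17.0, 22.3 and 24.2 against 14.5, 17.5 and 15.03 CPM) and AL162417.1 passed. AL162417.1 was at 0, 1.94 and 0.85 CPM in control libraries 1 to 3 and had 0 counts in all treated libraries. The control library left out for this call was thus at 0 as well.

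The chemokine receptor gene CXCR5 was called when only the 6 libraries were fitted. It held 3.15, 4.89 and 5.55 CPM in control libraries and 0, 0 and 0.05 CPM in treated libraries, so the groups were apart. After S100A8 alone it held 0, 0 and 5.80 CPM and after S100A9 alone 3.51, 3.35 and 2.63 CPM. It thus switched between absent and present within the S100A8 group as well. It lies on chromosome 11 at 118883766 to 118897799 and overlaps BCL9L on the other strand, and since the counting is not stated to use strand, reads of the pair cannot be told apart. AC138696.1, a gene that overlaps ZFP41 and GLI4, was listed at 0 in all controls and at 1.26, 1.02 and 1.47 CPM in treated libraries, and it was likewise at 0 in 1 library each of the S100A8 and S100A9 groups. No fold is given for either gene.

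Genes that the preparation could act through were expressed at levels that differ widely. Transcripts of S100A8, S100A9 and the related S100A12 had 0 counts in all 12 libraries, which allows up to 0.189 CPM in the smallest. Of 24 receptors and adaptors, 22 were tested, 11 were above 0, and the median difference was 0.00. For 16 the interval lay inside 25% and for 18 inside 1.5-fold. TLR4, the pattern receptor, was at 2.33, 2.51 and 3.34 CPM in control and 3.49, 2.99 and 2.78 CPM in treated cells, and a change of up to 1.53-fold was not excluded. Its coreceptor LY96 differed by -0.03 (-0.36 to 0.30) at 4.49 CPM. CD14, which hands ligands to TLR4, stayed under 0.68 CPM in all libraries and was not tested. AGER differed by 0.12 (-0.37 to 0.61) at 2.57 CPM.

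Among the other receptors, BSG and ALCAM were far more abundant. BSG (basigin), a reported S100A9 receptor, was at 433, 426 and 433 CPM in control and 472, 439 and 439 CPM in treated cells. It was the 1 member (4.55%) whose treated values all lay above the controls, by 0.06 (-0.01 to 0.14), against a background of 5.30% of all genes. ALCAM, an adhesion receptor, was at 767, 751 and 746 against 738, 746 and 838 CPM (0.04, -0.06 to 0.14). MCAM, a melanoma cell adhesion receptor, differed by -0.04 (-0.12 to 0.04) and NPTN (neuroplastin) by 0.01 (-0.15 to 0.17). In the signalling chain MYD88 differed by 0.06 (-0.15 to 0.27), the kinase IRAK1 by -0.01 (-0.08 to 0.07), the ubiquitin ligase TRAF6 by 0.02 (-0.16 to 0.20) and the kinase MAP3K7 by -0.06 (-0.16 to 0.03). The 95% intervals of all chain members over 10 CPM lay inside 25%. The family's other genes expressed here, 11 S100 genes tested, had a median of 0.06 (-0.02 without control library 1 and 0.02 without treated library 1), with S100A6 at 0.07 (-0.04 to 0.17), S100A10 at 0.06 (-0.03 to 0.15) and S100A11 at 0.00 (-0.10 to 0.10), and no member was apart from control.

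S100A9 alone gave the size of response against which the limits could be read. In that group 20 genes (0.148%) passed against PBS, 19 of them higher, where S100A8 alone gave 1 gene (0.00740%), and the same control libraries serve both comparisons. For 18 of these 19 genes the upper 95% limit after S100A8/S100A9 lay under the estimate after S100A9, and for 15 it lay under the lower limit after S100A9. Tested directly, 15 of the 19 were lower after S100A8/S100A9 than after S100A9 (edgeR, adjusted p under 0.05), where 34 of all genes (0.252%) passed; against S100A8 alone 0 (0%) did. These tests use the S100A9 libraries on which the 19 were selected. For 9 genes a change of 25% from PBS was excluded, for 12 one of 1.5-fold and for 15 one of 2-fold.

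SOD2, the mitochondrial superoxide dismutase, was at 294, 286 and 284 CPM after PBS, 276, 299 and 300 CPM after S100A8/S100A9 and 492, 536 and 507 CPM after S100A9. Its difference from PBS was 0.02 (-0.06 to 0.10) after S100A8/S100A9, which excludes a change of 1.07-fold, and 0.83 (0.75 to 0.91) after S100A9. CXCL8, the neutrophil chemokine IL-8, was at 32.6, 36.0 and 33.2 CPM after PBS, 37.8, 36.6 and 30.9 CPM after S100A8/S100A9 and 81.0, 99.5 and 75.4 CPM after S100A9. PBS and S100A8/S100A9 libraries overlapped for both genes, and S100A9 libraries stood above them.

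C3, the central complement component, was at 79.1, 86.4 and 88.4 CPM after PBS and 72.0, 85.4 and 77.8 CPM after S100A8/S100A9, a difference of -0.11 (-0.34 to 0.11), against 1.08 (0.87 to 1.30) after S100A9. The colony-stimulating factor CSF2 differed by -0.01 (-0.40 to 0.39) against 1.48 (1.12 to 1.83). The epithelial factor ELF3 was at 43.6, 36.7 and 44.2 CPM after PBS and 38.6, 35.9 and 35.1 CPM after S100A8/S100A9, a difference of -0.19 (-0.32 to -0.05), and it was 0.32 (0.19 to 0.46) above PBS after S100A9. Its 2 intervals lie on opposite sides of 0. PDZK1IP1, a membrane protein gene of epithelia, differed by -0.05 (-0.20 to 0.09), and ZC3H12A (Regnase-1) and ZC3H12C, which degrade cytokine mRNA, by 0.04 (-0.18 to 0.26) and 0.00 (-0.11 to 0.11). LCN2, the lipocalin used as a marker of tubular injury, could be limited only loosely: at 4.03, 8.65 and 6.06 against 4.22, 5.80 and 4.97 CPM its interval ran from -1.32 to 0.68, still under the 2.35 that bounds it from below after S100A9.

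A few of the 19 lay between the groups. IL6 (chromosome 7, 22725884 to 22732002), the acute-phase cytokine, was at 6.07, 6.90 and 5.10 CPM after PBS and 7.71, 9.57 and 6.96 CPM after S100A8/S100A9, a difference of 0.42 (0.13 to 0.72; adjusted p = 0.772 by edgeR). All treated values lay above all controls. After S100A9 it was at 15.9, 15.5 and 13 CPM, and the direct difference of S100A8/S100A9 from S100A9 was -0.88 (-1.14 to -0.62; adjusted p = 0.000327 by edgeR). NFKBIA, the NF-kB inhibitor that NF-kB itself induces, was at 41.3, 38.7 and 42.99 CPM after PBS and 48.3, 47.5 and 43.04 CPM after S100A8/S100A9 (a gap of under 0.1 CPM), a difference of 0.17 (0.04 to 0.31) against 0.30 (0.17 to 0.43) after S100A9, where the direct difference did not pass (adjusted p = 0.696 by edgeR). MT2A, a metallothionein that binds zinc, differed by 0.14 (0.03 to 0.24) with overlapping libraries, and WWC1, a Hippo pathway scaffold, by 0.08 (0.00 to 0.16) without overlap. IL6, NFKBIA and WWC1 were the 3 of the 19 genes wholly above control, and CCL20, a chemokine at 0.54 CPM in control and 0.28 CPM in treated cells, was the 1 wholly below.

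**Figure D3:**
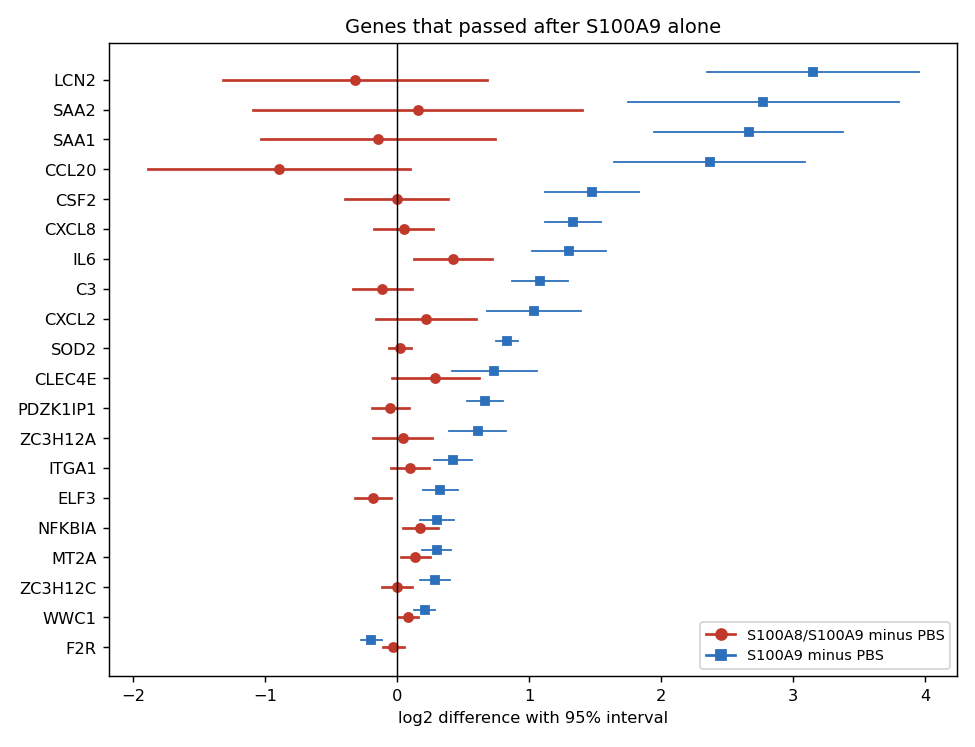
For the 20 genes that passed after S100A9 alone, log2 differences from PBS with 95% intervals are drawn for S100A8/S100A9 (circles) and S100A9 (squares), which share the 3 PBS libraries. The S100A8/S100A9 intervals of 15 of the 19 genes higher after S100A9 end below the start of the S100A9 interval.

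Wider lists gave limits of the same order for NF-kB signalling, and each list was read beside all genes, of which 49.7% were above 0. Of 26 NF-kB targets tested 0 passed, 13 were above 0, the median was 0.00, and 20 lay inside 25%. ICAM1, a leukocyte adhesion ligand, was at 168, 170 and 171 CPM in control and 178, 164 and 170 CPM in treated cells, so that a change of 1.07-fold was excluded (0.01, -0.08 to 0.09). TNFAIP3, the feedback deubiquitinase A20, differed by 0.04 (-0.07 to 0.15) and BIRC3, an inhibitor of apoptosis, by 0.01 (-0.16 to 0.18). NFKBIZ, a nuclear cofactor of NF-kB, was at 177, 190 and 181 against 161, 179 and 160 CPM (-0.13, -0.23 to -0.03), with overlap. Of 14 subunits and kinases 11 lay inside 25%, NFKB1 at 0.00 (-0.10 to 0.10) and RELA at 0.04 (-0.10 to 0.18). REL was wholly below control, at 77.1, 80.0 and 78.1 against 70.9, 74.6 and 69.5 CPM (-0.13, -0.24 to -0.02).

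Cytokines were mostly low, and their limits were wider. Of 35 in the list 21 were tested, 10 were above 0, and the median was -0.01, with 8 inside 25% and 12 inside 1.5-fold. Apart from control were 3 on the higher side (14.3%, IL6, CXCL16 and CXCL3) and 3 on the lower (14.3%, CCL20, IL1A and IL15), against 5.30% and 5.40% of all genes, and all 6 were under 11 CPM in each library. CXCL16, a membrane-bound chemokine, was at 6.89, 7.02 and 6.63 against 8.15, 7.30 and 8.95 CPM (0.25, 0.00 to 0.50). IL1A, an alarmin, was at 1.11, 0.94 and 0.96 against 0.44, 0.60 and 0.73 CPM (-0.77, -1.52 to -0.02). The better measured members were close to control: CSF1, the macrophage growth factor, differed by -0.03 (-0.15 to 0.09), LIF, a cytokine of the IL-6 family, by -0.03 (-0.15 to 0.08) and IL32 by 0.03 (-0.14 to 0.21).

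Complement and acute-phase genes leaned lower. Of 28 in the list 19 were tested, 4 were above 0, and the median was -0.11. Wholly below control were 4 (21.1%, against 5.40% of all genes), and 0 lay wholly above. C1RL, a protease related to C1r, was at 17.9, 19.2 and 19.3 CPM in control and 14.7, 16.5 and 14.5 CPM in treated cells (-0.30, -0.49 to -0.12). CFB, factor B of the alternative pathway, was at 15.3, 14.1 and 14.5 against 13.4, 10.2 and 12.4 CPM (-0.28, -0.49 to -0.06). The regulator CFI was wholly below control too, with a difference of -0.25 (-0.50 to -0.01). The surface inhibitors CD46 and CD59, which are abundant on these cells, differed by -0.01 (-0.08 to 0.07) and -0.04 (-0.12 to 0.05). As a mean over the members relative to the control mean (log2), treated libraries were at -0.14, -0.04 and -0.17 and controls at -0.08, 0.11 and -0.03, so the list as a whole overlapped. Control library 2 was the highest of the 6, and without it the median of the list was -0.06. With no filter on low counts, which adds weakly expressed members, the median was -0.03. Against the same controls, the mean over the members was -0.26 to -0.09 in the S100A8 libraries and 0.36 to 0.46 in the S100A9 libraries. The median difference of the members from PBS was -0.04 after S100A8 and -0.01 after S100A9, so the S100A9 mean does not describe the typical member.

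**Figure D4:**
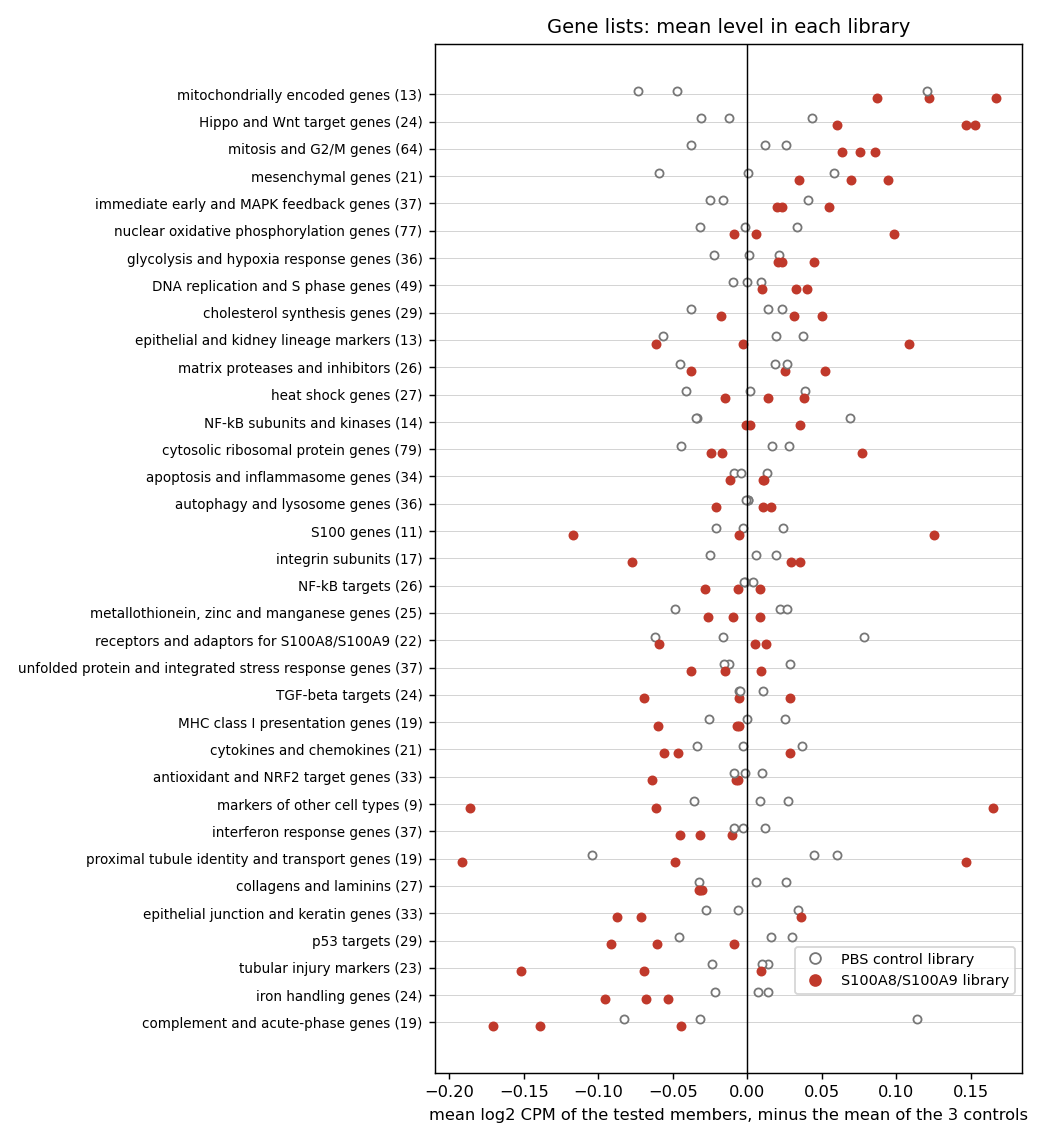
For 35 gene lists, with the number of tested members in brackets, each point is a library's mean log2 CPM over the members minus the mean of the 3 controls (x axis, log2); open circles are PBS and filled circles S100A8/S100A9. In 27 of the 35 lists all 6 libraries lie within 0.10 of 0, and the 2 groups are apart for 3 lists on the higher side (mitosis, DNA replication, Hippo and Wnt) and 2 on the lower (interferon response, iron handling). Of the single genes tested, 10.7% are apart in either direction.

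Mitotic genes leaned higher by a small amount. Of 64 genes of mitosis and G2/M, all tested, 59 (92.2%) were above 0, with a median of 0.07, a factor under 1.1. Wholly above control were 18 (28.1%, against 5.30% of all genes) and wholly below 0, and at an unadjusted p under 0.05 there were 19 higher (background 2.65%) and 0 lower. Of all genes between 100 and 1000 CPM, 6.87% lay wholly above control. None of the 64 passed over all genes by edgeR. Members of this list, as of the others, can vary together from library to library. Counts over members are therefore not counts of independent observations. As a mean over the members, controls stood at 0.01, 0.03 and -0.04 and treated libraries at 0.08, 0.09 and 0.06 (log2), so every treated library lay above every control. For 58 members a change of 25% was excluded, and for all 64 one of 1.5-fold. The S100A8 libraries, set against the same controls, were at 0.07 to 0.10, and the S100A9 libraries at -0.02 to 0.03. The earlier results known when the list was chosen already showed this lean.

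DLGAP5 (chromosome 14, 55148112 to 55191678), a spindle protein, was at 70.9, 70.3 and 66.4 CPM in control and 77.6, 81.4 and 78.6 CPM in treated cells, a difference of 0.19 (0.09 to 0.30). CKAP2L, a spindle protein of chromosome 2, was at 54.8, 58.8 and 54.5 against 65.9, 61.9 and 63.8 CPM (0.19, 0.08 to 0.30). PTTG1 (securin), which holds back sister chromatid separation, was at 31.7, 33.9 and 34.3 against 40.6, 40.2 and 37.0 CPM (0.24, 0.10 to 0.37). In these 3 genes each treated library exceeded each control, and PTTG1 had the largest estimate of the list. The kinetochore gene NUF2 differed by 0.23 (0.09 to 0.36), the kinesin KIF20A by 0.20 (0.08 to 0.33) and CDC20, the activator of the anaphase-promoting complex, by 0.15 (0.04 to 0.26), all 3 without overlap. The proliferation marker MKI67 was at 575, 591 and 585 against 642, 636 and 606 CPM (0.10, 0.03 to 0.18), and TOP2A, the mitotic topoisomerase, was at 536, 526 and 528 against 574, 563 and 566 CPM (0.10, 0.03 to 0.17). These abundant members were also apart from control, at no more than 1.14-fold. The central kinase CDK1 (0.07, -0.02 to 0.16), its cyclin CCNB1 (0.06, -0.04 to 0.16) and the kinase AURKA (0.05, -0.05 to 0.15) overlapped with control.

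**Figure D5:**
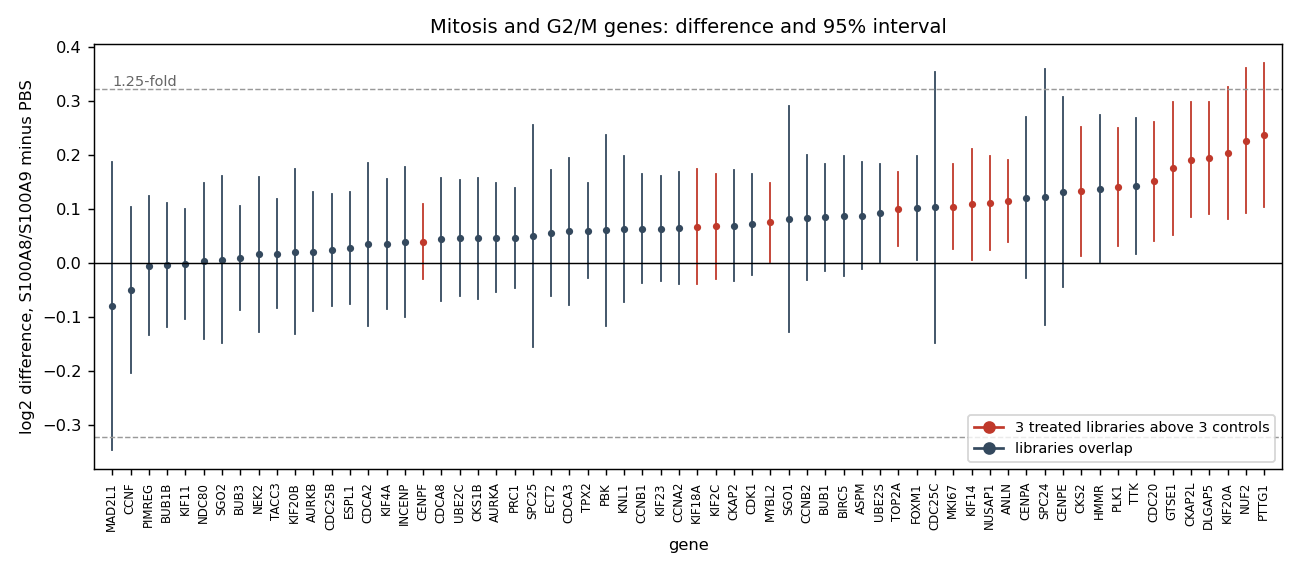
Log2 differences (S100A8/S100A9 minus PBS) with 95% intervals are given for the 64 genes of mitosis and G2/M, ordered by estimate, with dashed lines at 25%. Of the 64 estimates 59 lie above 0 and none beyond 25%; genes whose 3 treated libraries all exceed the 3 controls are drawn in red.

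Promoters of mitotic genes are known for the cell cycle homology region (CHR), through which they are repressed outside G2 and M, and for CCAAT boxes. RefSeq (GRCh38.p14) windows of 250 bases before the start were matched to 10832 of the 13512 genes tested and to 53 of the 64 mitotic genes. Of the mitotic genes that were higher and had such a window, the 3 with the smallest p are shown. Genes on an excluded chromosome could not be chosen. The windows are given on the gene's strand and 5′ to 3′, with matches to TTTGAA or its reverse complement TTCAAA in capitals.
DLGAP5 (chr14:55191586-55191835, minus strand): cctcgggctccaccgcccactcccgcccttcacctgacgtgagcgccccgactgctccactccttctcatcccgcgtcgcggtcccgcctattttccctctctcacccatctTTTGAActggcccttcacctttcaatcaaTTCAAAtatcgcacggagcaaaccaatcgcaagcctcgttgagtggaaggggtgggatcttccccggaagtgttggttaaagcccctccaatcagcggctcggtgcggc
CKAP2L (chr2:112764610-112764859, minus strand): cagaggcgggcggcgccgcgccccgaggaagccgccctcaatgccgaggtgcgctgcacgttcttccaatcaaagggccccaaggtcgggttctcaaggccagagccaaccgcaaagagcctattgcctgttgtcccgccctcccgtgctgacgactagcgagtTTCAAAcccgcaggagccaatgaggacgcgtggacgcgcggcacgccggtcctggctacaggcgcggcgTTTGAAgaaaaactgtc
PTTG1 (chr5:160421605-160421854, plus strand): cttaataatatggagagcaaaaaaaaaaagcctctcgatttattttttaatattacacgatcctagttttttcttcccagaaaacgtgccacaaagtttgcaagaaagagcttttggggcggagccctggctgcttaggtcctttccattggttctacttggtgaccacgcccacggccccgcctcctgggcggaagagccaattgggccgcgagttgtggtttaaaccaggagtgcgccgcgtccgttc

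DLGAP5 holds 2 matches, the nearer 109 bases before the start, CKAP2L holds 2, the nearer 17 bases before it, and PTTG1 holds 0 in this window. TTTGAA on either strand was found in 27 of the 53 mitotic promoters (50.9%), in 903 of all 10832 (8.34%) and in 1 of 41 promoters of DNA replication genes (2.44%). CCAAT or its reverse complement ATTGG was found in 41 of the 53 (77.4%), in 35.1% of all and in 22 of the 41 (53.7%). The letters did not sort the mitotic genes by their difference: the median was 0.07 for the 27 with TTTGAA and 0.07 for the 26 without, with 24 and 25 genes above 0. Over all genes tested the 903 with it had a median of 0.00. A match describes these letters only and not a site in use.

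Genes of DNA replication and S phase moved less. Of 49 tested 33 (67.3%) were above 0, the median was 0.01, and 47 lay inside 25% and 49 inside 1.5-fold. RRM1, a subunit of ribonucleotide reductase, was wholly above control, at 107, 112 and 107 against 122, 115 and 118 CPM (0.12, 0.02 to 0.22). MCM2, a subunit of the replicative helicase, was wholly below it, at 303, 309 and 310 against 301, 297 and 293 CPM (-0.05, -0.14 to 0.04). PCNA, the sliding clamp, differed by 0.00 (-0.08 to 0.08). The mean of the list was 0.04, 0.03 and 0.01 in treated libraries and 0.01, -0.01 and 0.00 in controls, which is apart by a narrow margin.

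Genes regulated by Hippo and Wnt signalling leaned higher as well. Of 24 tested 22 (91.7%) were above 0, with a median of 0.08, and 8 (33.3%, against 5.30% of all genes) lay wholly above control, while 0 lay wholly below. CCND1, the cyclin that drives G1, was at 255, 242 and 265 CPM in control and 285, 266 and 282 CPM in treated cells (0.13, 0.03 to 0.23). CCN2, a matricellular growth factor gene, was at 198, 172 and 192 against 237, 204 and 209 CPM (0.21, -0.05 to 0.47), and CRIM1, a transmembrane binder of BMPs, differed by 0.09 (0.02 to 0.16). The transcription factor TEAD1 differed by 0.08 (0.01 to 0.16) and its coactivators WWTR1 (TAZ) and YAP1 by 0.06 (-0.01 to 0.14) and -0.01 (-0.11 to 0.08). The first 5 of these 6 were wholly above control and YAP1 overlapped. The list's mean was 0.15, 0.15 and 0.06 in treated and 0.04, -0.01 and -0.03 in control libraries, apart by a margin smaller than the spread within either group. S100A8 libraries were at 0.06 to 0.10 and S100A9 libraries at 0.00 to 0.07 against the same controls.

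Mitochondrially encoded genes, which specify respiratory chain subunits, were all 13 above 0, with a median of 0.11. They are made from shared transcripts of 1 small genome and are not independent of each other, and reads of nuclear copies could be shared. MT-ND1, a complex I subunit, was at 4197, 4145 and 4470 CPM in control and 4902, 4787 and 4492 CPM in treated cells (0.15, 0.05 to 0.24). MT-CO2 of complex IV was at 5132, 5193 and 5499 against 5778, 5516 and 5559 CPM (0.09, 0.01 to 0.17). These 2 members (15.4%) were the ones apart from control, each by a small gap. Wholly above control were 5.30% of all genes and 12.7% of those at 1000 CPM and over, the latter including these 2. As a list the libraries overlapped, at -0.07, -0.05 and 0.12 in controls and 0.12, 0.17 and 0.09 in treated cells, with control library 3 as high as the treated ones; without it the median was 0.16. For respiratory chain subunits encoded in the nucleus (77 genes) the median was 0.03 with 51 above 0, and 69 lay inside 25% and all 77 inside 1.5-fold. The 79 cytosolic ribosomal protein genes had a median of 0.01, with 71 inside 25% and all 79 inside 1.5-fold.

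Injury and identity genes of the tubule showed no common direction. Of 23 injury markers 14 were above 0, the median was 0.02, and 3 lay wholly above and 4 wholly below control, where 5.30% and 5.40% of all genes did. TNC, the matrix protein tenascin-C, was at 27.0, 26.1 and 25.9 CPM in control and 32.3, 29.9 and 30.2 CPM in treated cells (0.23, 0.08 to 0.37). CD44, a hyaluronan receptor, was at 240, 215 and 229 against 248, 244 and 247 CPM (0.11, 0.03 to 0.20), and both were apart from control. SOX9, a factor of regenerating tubules, was at 3.501, 3.26 and 3.12 against 2.86, 2.21 and 2.46 CPM (-0.38, -0.82 to 0.06). HAVCR1 (KIM-1), the classical injury marker, overlapped at 0.10 (-0.04 to 0.24), SPP1 (osteopontin) differed by 0.02 (-0.07 to 0.10) and VIM (vimentin) by 0.06 (-0.02 to 0.14). Among 19 identity and transport genes 8 lay inside 25%. HNF4A, the factor of proximal tubule identity, was at 1.11, 0.88 and 0.68 against 0.58, 0.48 and 0.26 CPM (-0.99, -1.92 to -0.06), wholly below control at a level that leaves a decrease of up to 3.79-fold within the interval. The brush border peptidase MME differed by -0.03 (-0.14 to 0.07).

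Matrix genes were mixed. Of 27 collagens and laminins 9 were above 0, the median was -0.03, and 6 (22.2%, against 5.40% of all genes) lay wholly below and 2 (7.41%, near the 5.30% of all genes) wholly above control. Beside COL7A1, COL4A5 of basement membranes was at 18.7, 18.6 and 18.9 against 14.1, 14.2 and 16.8 CPM (-0.32, -0.51 to -0.12). COL1A1 was at 8.05, 8.84 and 9.01 against 7.18, 6.70 and 6.39 CPM (-0.35, -0.62 to -0.09), and the laminin chain LAMA3 differed by -0.11 (-0.20 to -0.01). COL4A1, an abundant basement membrane collagen gene, overlapped with control at 0.04 (-0.03 to 0.12). TIMP1, an inhibitor of matrix proteases, was at 68.5, 69.7 and 79.9 against 82.3, 84.4 and 80.3 CPM (0.18, 0.04 to 0.32), wholly above control by a small gap. Among 33 genes of epithelial junctions and keratins 25 lay inside 25%, with KRT8 at 0.02 (-0.05 to 0.09), and JUP (plakoglobin) was wholly above control at 0.16 (0.05 to 0.27). The 24 TGF-beta targets had a median of 0.02 with 17 inside 25%.

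Metal handling was examined because calprotectin binds zinc and manganese. Of 25 metallothionein, zinc and manganese genes 22 lay inside 25%, 9 were above 0 and the median was -0.02. MT2A was at 415, 423 and 487 CPM in control and 487, 488 and 482 CPM in treated cells, overlapping because control library 3 was as high. MT1E, a close relative, differed by 0.12 (0.03 to 0.22) with overlap, the zinc exporter SLC30A1 by -0.05 (-0.22 to 0.12) and the importers SLC39A10 and SLC39A14 by -0.01 (-0.13 to 0.12) and -0.04 (-0.13 to 0.05). Iron handling genes leaned lower: 8 of 24 were above 0, the median was -0.05, and 4 (16.7%) lay wholly below control against 5.40% of all genes. HFE, a regulator of iron uptake, was at 14.1, 12.3 and 14.3 against 11.3, 12.2 and 11.1 CPM (-0.23, -0.44 to -0.03). The exporter SLC40A1 (ferroportin) was at 10.2, 11.2 and 10.5 against 8.78, 9.69 and 9.32 CPM (-0.19, -0.42 to 0.03), and HMOX1, which frees iron from haem, differed by -0.12 (-0.27 to 0.03). The main uptake and storage genes were close to control, with the transferrin receptor TFRC at 0.01 (-0.06 to 0.08) and the ferritin chains FTH1 and FTL at 0.03 (-0.05 to 0.12) and -0.05 (-0.18 to 0.08). The list's mean was -0.07, -0.05 and -0.10 in treated and -0.02, 0.01 and 0.01 in control libraries, and without control library 2 the median was -0.02. Against the same controls, the S100A8 libraries were at -0.054 to -0.046 and the S100A9 libraries at 0.12 to 0.14. The median difference of the members from PBS was -0.03 after S100A8 and 0.04 after S100A9. LCN2, itself a member, has the wide interval given above after S100A8/S100A9. It was far higher after S100A9 and so raises the S100A9 mean.

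Stress and death pathways gave limits of the same order. Of 37 genes of the unfolded protein and integrated stress responses 36 lay inside 25% and all 37 inside 1.5-fold. The transcription factor ATF4 differed by 0.03 (-0.06 to 0.13), DDIT3 (CHOP) by -0.12 (-0.30 to 0.05) and the stress cytokine GDF15 by -0.06 (-0.17 to 0.04). Of 29 p53 targets 8 were above 0 with a median of -0.05, CDKN1A (p21) stood wholly below control at 244, 273 and 261 against 217, 233 and 238 CPM (-0.18, -0.42 to 0.06), and MDM2 differed by 0.03 (-0.06 to 0.12). HK-2 cells were immortalised with viral oncoproteins that act on p53 and RB, which limits what this list can show. Of 33 antioxidant and NRF2 target genes 31 lay inside 25%, with NQO1 at -0.04 (-0.13 to 0.06). Of 34 apoptosis and inflammasome genes 26 did: BCL2, a survival gene, was at 50.6, 51.5 and 54.1 against 57.3, 56.7 and 58.6 CPM (0.14, 0.02 to 0.27), BID, a proapoptotic gene, differed by 0.18 (0.01 to 0.34), and the pore former GSDMD was lower in each treated library (-0.21, -0.41 to -0.02). Of these 34 genes 4 (11.8%) lay wholly above control and 3 (8.82%) wholly below, against 5.30% and 5.40% of all genes. The 27 heat shock genes had a median of 0.00 with 24 inside 25%, and the 36 genes of autophagy and lysosomes a median of 0.02 with 34 inside it.

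Interferon response genes had a median of -0.01, with 16 of 37 above 0 and 24 inside 25%. Their mean was -0.01, -0.03 and -0.05 in treated and 0.00, 0.01 and -0.01 in control libraries, apart by less than 0.01. IFI44L was at 15.2, 18.1 and 17.9 against 14.6, 14.2 and 13.98 CPM (-0.26, -0.48 to -0.04), whereas ISG15, a ubiquitin-like modifier, was at 20.8, 20.9 and 21.6 against 22.1, 22.2 and 21.8 CPM (0.06, -0.09 to 0.21). These 2 members stood apart from control in opposite directions. The 19 genes of MHC class I presentation had a median of 0.00 and 16 lay inside 25%, with B2M, the invariant light chain, at 0.04 (-0.04 to 0.12). Most members were also limited to under 25% for cholesterol synthesis (29 genes, median 0.04, 27 inside 25%) and glycolysis with hypoxia response genes (36, median 0.02, 29 inside). The same held for mesenchymal genes (21, median 0.05, 15 above 0, 14 inside). GAPDH of glycolysis differed by 0.06 (-0.01 to 0.13).

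Over the 35 lists together, 981 distinct members of 1091 were tested and 0 passed edgeR's test over all genes. Among the 35 list means, treated and control libraries were apart for 5, and in each of these the difference was 0.12 or less on the log2 scale. Of the single genes tested, 1446 (10.7%) were apart in either direction. Whether the lists that were apart reflect a shift of a function was not tested.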

How the data were processed

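RNA of HK-2 cells was selected by poly(A), primed at random and sequenced on an Illumina instrument, per the labels' protocols. The deposited table gives for each of 12 libraries an estimated count per gene, made by the authors and not scaled to depth (12.0% of entries are not whole), and an FPKM value, which the authors scaled to gene length and depth. No source used here states how reads were aligned and counted or whether strand was used. Builds listed in the submitters' processing notes are those of mouse (GRCm38, mm10), while all 20286 gene IDs are human Ensembl IDs. Symbols came from a gene name table (19717 IDs) and GENCODE 29 (521), and 48 IDs had none. Positions are those of GENCODE 29 on GRCh38.

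Estimated counts were rounded, filtered (filterByExpr, minimum count 10), scaled by TMM and fitted with edgeR 4.0.16 (quasi-likelihood, robust, R 4.3.3) over all 12 libraries with 1 coefficient per group, leaving 8 residual degrees of freedom and a common biological variation of 4.65% (coefficient of variation). P-values are two-sided, adjusted by Benjamini-Hochberg over 13512 genes. The 95% intervals use the fit's standard error and its moderated degrees of freedom, and the simultaneous ones a Bonferroni correction. Alternatives included DESeq2 1.42.0, limma 3.58.1 on log2(FPKM + 1), other scalings and filters, and leaving out each library. The scripts were tested on simulated data. List means are of log2 CPM with a prior count of 2. Floors of 3 counts cover counting error only.

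Genes named were the 8 per direction with the smallest p at 1 CPM or more, all receptors, the 3 most abundant and the strongest member per direction of each list, genes called in any alternative, those called after S100A9, and the widest and narrowest intervals. Others that are named were picked after their values were seen. Some genes that these rules take are not reported here. The comparison, its members and the lists were chosen with earlier results of these data known.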

Additional observations from a re-analysis of the deposited data

How the results depend on the processing

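Of 0 genes called, the count became 2 with a replicate block (RBM3, VGF), 2 with only the 6 libraries compared (CXCR5, AC138696.1), 1 by DESeq2's Wald test (IGFN1), and 0 to 2 when 1 library was left out, with 2 without control replicate 1. It was 0 under DESeq2 size factors, no filter on low counts, no robust option, limma on log2(FPKM + 1) and summed near copies. Whether replicate numbers pair the libraries stayed undecided. Deviations of same-numbered libraries correlated at 0.05, 0.34 and -0.20, and 2 of 6 libraries correlated best with their own number. With so few libraries a group this check cannot show that pairing is absent, and SLC5A3 and AKR1B1 were lowest in library 2 of both groups. Well measured genes inside 25% numbered 8489 to 8740 with 1 library left out and 9249 with the block, against 9073. Leaving out 1 library moved some list medians by more than the spread between libraries. These ranged from -0.0437 to 0.0364 for cytokines, -0.0397 to 0.0134 for interferon response, -0.0322 to 0.00997 for MHC class I, -0.0457 to -0.00551 for collagens and laminins, 0.0107 to 0.0340 for DNA replication, -0.0156 to 0.0158 for apoptosis, -0.0185 to 0.0238 for autophagy and -0.06345 to -0.0210 for iron handling. The medians stayed at 0.05 to 0.08 for mitosis, 0.06 to 0.09 for Hippo and Wnt targets and -0.17 to -0.06 for complement. Of 2830 values of named genes under the alternatives, 2792 moved by less than 1 SD, 32 by more, and 6 passed the threshold in the same direction. Of those that did not pass, 139 changed sign. Under 1 CPM the median interval reached a factor of 1.87, so smaller changes were not detectable at this depth. The cause of these shifts was not tested.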

Other observations

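SLC5A3 and AKR1B1 varied by library within both groups. SLC5A3, the myo-inositol transporter, was at 265, 134 and 240 CPM in control libraries 1 to 3 and at 275, 168 and 260 CPM in treated libraries 1 to 3. AKR1B1, the aldose reductase that makes sorbitol, was at 546, 363 and 478 CPM in control and 671, 461 and 537 CPM in treated cells, which left a difference of 0.27 (95% interval -0.32 to 0.85) at over 300 CPM in every library. In both genes the libraries numbered 2 were the lowest of their group. These genes were picked after their values were seen.

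Beside the lists of the comparison, immediate early and MAPK feedback genes (37 tested) had a median log2 difference of 0.03, with 4 (10.8%) wholly above control and 1 (2.70%) wholly below, against 5.30% and 5.40% of all genes. The feedback genes DUSP6 and SPRY2 both differed by 0.13 and the growth factor HBEGF by 0.14, without overlap, while IER2 was wholly below control at -0.19. Of 17 integrin subunits 2 (11.8%) lay wholly above control, ITGB6 at 0.28 and ITGA2 at 0.20, and 2 (11.8%) wholly below, ITGA3 at -0.10 and ITGA5 at -0.07. Of 26 matrix proteases and inhibitors 5 (19.2%) lay wholly above control and 2 (7.69%) wholly below. None of these genes passed edgeR's test over all genes.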
